A study of Rattus norvegicus with 9 samples.

Results

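The osteoclast genes *Atp6v0d2*, *Acp5*, *Ctsk*, *Dcstamp*, *Ocstamp* and *Oscar* were examined in the injured rat spinal cord. They were taken by gene symbol, as a set built around *Atp6v0d2*, which had stood among the largest rises in the SCI group over the Sham group in these same libraries. Of the 6 genes, 5 had a row among the 30507 rows of the count table. *Oscar*, a collagen receptor of osteoclast precursors, had none and was not analysed here. Because the choice rested on SCI against Sham, the values of the 5 genes in that comparison are given as a description without a test.

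The libraries were made from poly(A) RNA of T9-T11 spinal cord segments of female Sprague-Dawley rats, taken at 35 days post injury (dpi) from 9 rats, 3 per group (Sham, SCI, SCI + SCS). The rats were wild type and bought at 8 weeks of age. Sham rats had a laminectomy alone according to the study's methods, whereas the sample labels call them untreated. SCI rats had a T10 contusion of 150 kdyn, and SCI + SCS rats had the same contusion plus an epidural electrode that delivered 10 kHz pulses of 30 µs at 0.12 mA for 2 h per day from 1 dpi. The SCI rats carried no electrode, so the implant and the stimulation cannot be told apart here.

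Osteoclasts are multinucleated cells of the monocyte and macrophage lineage that resorb bone. Precursors require CSF1, signaling through CSF1R, and RANKL (*Tnfsf11*), signaling through RANK (*Tnfrsf11a*), together with co-stimulation by receptors that pair with the ITAM adaptors TYROBP and FCER1G. They then fuse, pump acid onto the bone surface with a V-ATPase and digest the matrix with cathepsin K. Macrophages in soft tissue, including those that take up myelin debris or fuse into giant cells, can express some of the same genes, and cathepsin K is also made by fibroblasts.

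The promoters of *Acp5* and *Ctsk* are shown because the levels of these 2 genes followed each other most closely (Pearson's r = 0.99 over the 9 libraries on log2 CPM, and 0.98 over the 6 injured libraries, which share groups and dissection). Each sequence is the RefSeq promoter on build GRCr8, from 250 bases before to 50 bases after an annotated start, written 5′ to 3′ on the gene's strand. Capitals mark the M-box, the motif of MITF and TFE factors, found here on the opposite strand (TCATGTG, read as CACATGA).
Acp5 promoter, chr8:28943880-28944179, minus strand: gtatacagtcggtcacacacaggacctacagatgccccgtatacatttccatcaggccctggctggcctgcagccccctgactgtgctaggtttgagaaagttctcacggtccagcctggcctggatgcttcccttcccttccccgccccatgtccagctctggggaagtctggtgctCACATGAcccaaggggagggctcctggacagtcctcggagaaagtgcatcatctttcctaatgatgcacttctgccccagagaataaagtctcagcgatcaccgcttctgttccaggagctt
Ctsk promoter, chr2:185747298-185747597, plus strand: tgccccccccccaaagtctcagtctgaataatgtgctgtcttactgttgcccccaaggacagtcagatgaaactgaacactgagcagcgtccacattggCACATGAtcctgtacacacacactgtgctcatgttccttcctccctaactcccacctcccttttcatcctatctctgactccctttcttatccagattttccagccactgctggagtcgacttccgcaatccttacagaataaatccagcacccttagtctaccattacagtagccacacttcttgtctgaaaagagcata
The M-box lay 72 to 66 bases before the start of *Acp5* and 151 to 145 bases before that of *Ctsk*. It was held by 3.56% of the 33469 promoters of the same length. A further annotated start of *Acp5* and the promoters of *Ocstamp* and *Oscar* held none. The PU.1 motif GAGGAAG was found in the *Ctsk* promoter alone among these 5 promoters (12.4% of all promoters). The NFAT motif TGGAAA was found in the *Acp5* promoter shown, in *Ctsk* and in *Oscar* (22.7% of all). The E-box CACGTG (6.42% of all) and the AP-1 motif TGAGTCA (4.63% of all) were in none of them. Both strands were searched, no match overlapped another, and the matches are letters, not measured binding. *Atp6v0d2* and *Dcstamp* had no entry in the promoter table.

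*Atp6v0d2* encodes the d2 form of the d subunit in the membrane sector of the V-ATPase, and it is required for osteoclast fusion. The gene (ENSRNOG00000006926, chromosome 5, 33336264 to 33385354, minus strand, mRatBN7.2) had 0 counts in each of the 3 Sham libraries. In the SCI libraries it had 697, 595 and 522 counts, or 8.84, 8.44 and 7.54 CPM (CPM, counts scaled to a library total of 1e6 after TMM normalization over the 9 libraries). In the SCI + SCS libraries it had 256, 129 and 40 counts, or 3.59, 1.83 and 0.627 CPM. The 3 groups did not overlap, and the SCI + SCS libraries were the most spread. The means were 8.28 ± 0.667 CPM in SCI and 2.02 ± 1.49 CPM in SCI + SCS (SD, n = 3 each). Against a floor of 3 counts per library, the SCI level was at least 215-fold higher than the Sham level. Counting floors cover counting error only. Fewer cells of a type and less RNA per cell cannot be told apart in whole tissue.

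*Acp5* encodes tartrate-resistant acid phosphatase, the enzyme stained to identify osteoclasts. The gene (ENSRNOG00000046261, chromosome 8, 20663985 to 20667929, minus strand) measured 0.865, 2.16 and 3.2 CPM in Sham and 15.7, 23.8 and 20.3 CPM in SCI. In the SCI + SCS libraries it measured 12.4, 10.5 and 10.3 CPM. The lowest SCI value exceeded the highest SCI + SCS value, and the lowest SCI + SCS value exceeded the highest Sham value. The mean in SCI (19.9 ± 4.02 CPM) was 9.61-fold that in Sham (2.08 ± 1.17 CPM).

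*Ctsk* encodes cathepsin K, the protease that cleaves type I collagen in bone. The gene (ENSRNOG00000021155, chromosome 2, 183058569 to 183069550, plus strand) measured 6.08, 16.4 and 24.5 CPM in Sham and 129, 217 and 208 CPM in SCI. The SCI + SCS libraries measured 96.1, 76.5 and 60.6 CPM. The groups kept the same order as for *Acp5*, again without overlap. The mean in SCI (185 ± 48.3 CPM) was 11.8-fold that in Sham (15.7 ± 9.23 CPM). Within the Sham group, replicate 1 was the lowest and replicate 3 the highest for both *Acp5* and *Ctsk*.

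*Dcstamp* and *Ocstamp* encode multipass membrane proteins needed for the fusion of osteoclast precursors, and both were close to the limit of detection. *Dcstamp* (ENSRNOG00000004704, chromosome 7, 70807581 to 70822078, plus strand) had 0, 10 and 4 counts in Sham and 19, 12 and 10 counts in SCI. In SCI + SCS it had 0 counts in all 3 libraries. The SCI libraries were above the other 6 on the CPM scale, from 0.144 to 0.241 CPM against 0.114 CPM at most in Sham. *Ocstamp* (ENSRNOG00000019110, chromosome 3, 154132328 to 154136991, minus strand) had 20, 10 and 13 counts in Sham, 26, 57 and 13 in SCI, and 21, 4 and 14 in SCI + SCS. All 3 groups overlapped for *Ocstamp*, whose highest value (0.809 CPM) was SCI replicate 2.

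**Figure D1:**
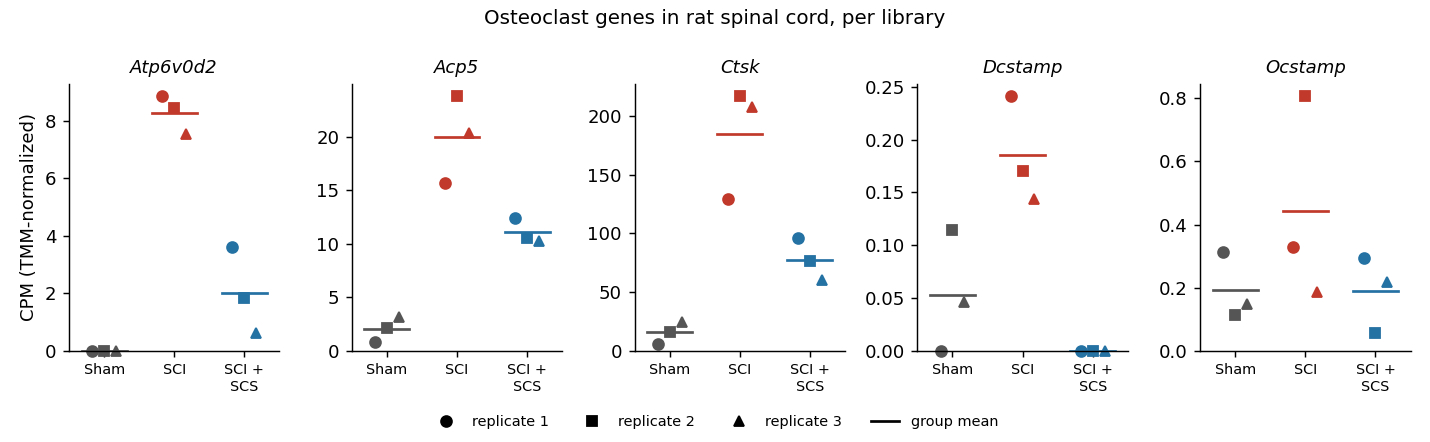
CPM after TMM normalization (vertical axes, linear, a separate scale for each gene) of the 5 genes with a row in each library by group, with a line at each group mean (n = 3). Atp6v0d2 lies at 0 in Sham, between 7.54 and 8.84 CPM in SCI and between 0.627 and 3.59 CPM in SCI + SCS, Acp5 and Ctsk also separate the 3 groups, and the 3 groups overlap for Ocstamp.

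Per gene length, on the authors' FPKM scale, the order of levels in the SCI group was *Ctsk* (105 ± 34.6 FPKM), *Acp5* (11.2 ± 3.06), *Atp6v0d2* (5.08 ± 0.337), *Ocstamp* (0.193 ± 0.154) and *Dcstamp* (0.0693 ± 0.0145). Each of the first 3 genes was apart from its neighbour in every SCI library, while *Ocstamp* and *Dcstamp* overlapped. In the Sham group the order was *Ctsk* (8.81 ± 5.22 FPKM), *Acp5* (1.10 ± 0.666), *Ocstamp* (0.0810 ± 0.0464) and *Dcstamp* (0.0202 ± 0.0216), with *Atp6v0d2* at 0. *Atp6v0d2* was therefore the lowest of the 5 genes in Sham and the third highest in SCI. In SCI + SCS, *Ctsk* (44.6 ± 10.2 FPKM), *Acp5* (5.98 ± 0.965) and *Atp6v0d2* (1.27 ± 0.95) kept that order.

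The other gene of the V-ATPase d subunit, *Atp6v0d1*, encodes the d1 form found in nearly all cells. It measured between 109 and 134 FPKM in the 9 libraries, and the 3 groups overlapped. Its log2FC was 0.03 ± 0.12 (SE) in SCI against Sham, 0.05 ± 0.08 in SCI + SCS against SCI and 0.10 ± 0.10 in SCI + SCS against Sham, with adjusted p = 0.830, 0.750 and 0.482 (edgeR's quasi-likelihood test). As a share of the summed FPKM of both d genes, *Atp6v0d2* was 4.08%, 4.23% and 3.72% in the SCI libraries and 1.73%, 0.920% and 0.290% in the SCI + SCS libraries. It was 0% in Sham. The d1 form thus made up nearly all of the d subunit RNA in every library, and the d2 share was 4.01 ± 0.262% in SCI and 0.979 ± 0.720% in SCI + SCS (SD, n = 3).

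**Figure D2:**
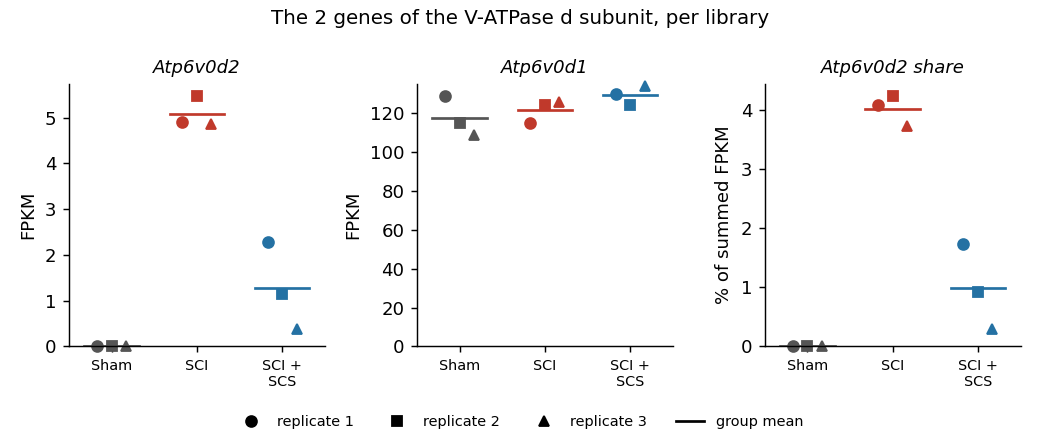
FPKM of Atp6v0d2 and of Atp6v0d1, and Atp6v0d2 as a percentage of their summed FPKM (vertical axes, linear and starting at 0), in each library with a line at the group mean (n = 3). Atp6v0d1 lies between 109 and 134 FPKM in all groups, while the Atp6v0d2 share is 0% in Sham, 3.72% to 4.23% in SCI and 0.290% to 1.73% in SCI + SCS.

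The next comparison asked how these genes differed between stimulated and unstimulated injured cords. It used the SCI libraries, which had entered the choice of the genes. A gene was called where |log2FC| exceeded 1 and p, adjusted by Benjamini-Hochberg over all rows tested, was under 0.05. *Atp6v0d2* was lower in SCI + SCS than in SCI by a log2FC of -2.03 ± 0.54 (SE, 95% interval -3.30 to -0.75), a 4.11-fold difference of the means, with adjusted p = 0.101 in edgeR's quasi-likelihood test. *Ctsk* differed by -1.24 ± 0.24 (interval -1.81 to -0.67, adjusted p = 0.0774) and *Acp5* by -0.84 ± 0.17 (interval -1.24 to -0.44, adjusted p = 0.0800). *Dcstamp*, at 0 counts in all SCI + SCS libraries, was at least 4.22-fold lower. It passed the filter on low counts only through its SCI counts (19, 12 and 10), so its p cannot be read as a test. *Ocstamp* differed by -1.20 ± 0.74 (interval -2.96 to 0.56, adjusted p = 0.369), within the spread of its libraries.

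None of the 5 genes tested passed the call in edgeR, where 0% of the 17663 rows were called lower and 0.00566% (1 row) were called higher. At an unadjusted p under 0.05, 4 of the 5 genes were lower, *Dcstamp* among them, against 10.9% of all rows. The set was built around a gene that was high in these SCI libraries, and *Dcstamp* entered the test through them. The counts of members here, by edgeR or DESeq2, are therefore no measure of an excess over all rows. DESeq2 called *Atp6v0d2* (log2FC -2.04, adjusted p = 0.00119) and *Ctsk* (log2FC -1.25, adjusted p = 2.37e-05) lower, against 1.58% of the rows it tested, and gave *Acp5* a log2FC of -0.85 with adjusted p = 0.000438, under the fold threshold. Over the 17 alternatives, the adjusted p ranged from 0.00119 to 0.309 for *Atp6v0d2*, from 2.37e-05 to 0.291 for *Ctsk* and from 0.000438 to 0.294 for *Acp5*. The calls on *Atp6v0d2* and *Ctsk* rested on the choice of DESeq2, and *Acp5* was called under none of the alternatives. The log2FC of *Atp6v0d2* stayed between -2.74 and -1.51 over those alternatives.

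Against Sham, the SCI + SCS libraries asked which of these genes remained above the uninjured level. The Sham libraries, in which *Atp6v0d2* was 0, are those the choice had used. *Atp6v0d2* was at least 52.3-fold higher in SCI + SCS than in Sham (adjusted p = 0.0113, edgeR's quasi-likelihood test). *Acp5* was higher by a log2FC of 2.41 ± 0.44 (adjusted p = 0.0115) and *Ctsk* by 2.31 ± 0.48 (adjusted p = 0.0165). *Ocstamp* had a log2FC of 0.01 ± 0.68 (interval -1.63 to 1.65, adjusted p = 0.992), and *Dcstamp* did not pass edgeR's filter on low counts. Of the 5 genes with a row, 4 were tested and 3 were called higher, against 6.28% of the 17640 rows tested, and none was called lower, against 5.44%. The call on *Atp6v0d2* drew on the Sham zeros, and this gene passed the filter only through its SCI + SCS counts. The number of members called is therefore no measure of an excess over all rows.

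The calls on *Acp5* and *Ctsk* against Sham depended on single libraries. Without Sham replicate 2, the adjusted p was 0.0503 for *Acp5* (log2FC 2.44) and 0.0628 for *Ctsk* (log2FC 2.34). Without SCI + SCS replicate 1, it was 0.0619 for *Ctsk* (log2FC 2.13). *Atp6v0d2* remained called under each of its 17 alternatives, with adjusted p between 1.37e-10 and 0.04997, the highest being that with replicate number as a block. The ranges were 2.69e-07 to 0.0579 for *Acp5* and 2.14e-06 to 0.0733 for *Ctsk*.

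Library totals lay between 62844376 and 88358570 counts, which put 3 counts at 0.0341 to 0.0472 CPM. Neuron markers summed to between 520 and 5590 CPM and oligodendrocyte markers to between 17100 and 81800 CPM, so the labelled tissue was present in every library. Skeletal muscle markers (13 of 18 with a row) summed to 4130 CPM in SCI replicate 1 and 1290 CPM in SCI replicate 3, against 38.6 to 143 CPM elsewhere. *Atp6v0d2* and *Dcstamp* were highest in SCI replicate 1, and *Acp5*, *Ctsk* and *Ocstamp* in SCI replicate 2, which had 38.6 CPM of muscle markers. The part of muscle in these levels was not tested. Adipocyte markers summed to 3.25 to 9.55 CPM in Sham, 88.6 to 117 CPM in SCI and 27.3 to 43.9 CPM in SCI + SCS. *Cfd* and *Fabp4* made up most of that sum in SCI (73.7 and 26.9 of 103 CPM on average). *Pparg* kept the same group order, at 2.17 CPM at most. *Plin1* overlapped, at 0.189 to 0.309 CPM in Sham, 0.127 to 0.289 CPM in SCI and 0.113 to 0.337 CPM in SCI + SCS. *Adipoq* did not exceed 0.303 CPM and *Cidec* 0.355 CPM in any library, and *Lep* was at 0 in all. The part of adipocytes in the levels of the members was not tested.

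Markers of macrophages, taken as a sum, kept the group order of *Atp6v0d2*, *Acp5* and *Ctsk*. The macrophage sum (9 of 10 with a row, none at 0 in all libraries, *Lgals3* the highest over the 9 libraries and *Gpnmb* in the SCI group) was 131 to 257 CPM in Sham, 2640 to 3220 CPM in SCI and 1780 to 1920 CPM in SCI + SCS. In SCI + SCS against SCI, all 9 markers had a negative log2FC and edgeR called 0. *Cd163* overlapped among the groups, at 2.85 to 7.98 CPM in Sham, 7.90 to 13.5 CPM in SCI and 7.57 to 10.6 CPM in SCI + SCS. Microglia markers summed to 281 to 362 CPM, 342 to 521 CPM and 412 to 538 CPM in the same order. Fibroblast markers, led by *Col3a1*, summed to 492 to 2180 CPM, 3790 to 5930 CPM and 2350 to 3960 CPM. The macrophage sums were thus lower in every SCI + SCS library than in every SCI library, whereas the fibroblast and microglia sums overlapped between these groups. The fibroblast overlap lay between SCI + SCS replicate 1 (3960 CPM) and SCI replicate 1 (3790 CPM). The mean fibroblast sum was lower, at 2978 CPM in SCI + SCS against 5066 CPM in SCI. The mean macrophage sum was 1871 against 2833 CPM, and the mean microglia sum 467 against 444 CPM. All 8 fibroblast markers had a negative log2FC in SCI + SCS against SCI, and edgeR called 0. The sum of dendritic cell markers also separated the SCI and SCI + SCS groups, at 27.7 to 35.1 CPM in Sham, 46.1 to 60.0 CPM in SCI and 31.9 to 39.4 CPM in SCI + SCS. It was led by *Clec10a*, which made up most of it in SCI (42.3 of 53.9 CPM on average). *Flt3* ran the other way, at 13.1 to 22.3 CPM in Sham, 5.51 to 9.35 CPM in SCI and 7.73 to 12.2 CPM in SCI + SCS. In SCI against Sham, edgeR called 4 of the 6 dendritic markers higher and 1 lower. In SCI + SCS against SCI, 4 had a negative and 2 a positive log2FC, and 0 were called. T cell markers, led by *Cd4*, summed to 22.0 to 58.1 CPM, 128 to 192 CPM and 109 to 146 CPM. *Cd4* made up most of that sum (135 of 156 CPM on average in SCI), and *Cd4* and *Cd8a* overlapped between the injured groups. *Cd3e*, *Cd3g*, *Cd3d* and *Cd2* were lower in every SCI + SCS library than in every SCI library. *Cd3e*, for instance, measured 1.69 to 2.38 CPM in SCI and 0.156 to 0.642 CPM in SCI + SCS. Neutrophil markers, led by *Csf3r*, summed to 3.77 to 8.51 CPM in Sham, 16.7 to 35.2 CPM in SCI and 19.7 to 39.0 CPM in SCI + SCS. The part of these cell types in the results on the members was not tested.

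Levels were therefore also set against these sums, as CPM of the gene per 1000 CPM of markers. *Atp6v0d2* measured 3.35, 2.62 and 2.85 per 1000 macrophage CPM in SCI and 2.02, 0.955 and 0.326 in SCI + SCS. These 2 groups did not overlap, and the mean was 2.67-fold higher in SCI (2.94 ± 0.374 against 1.10 ± 0.858, SD, n = 3).

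*Acp5* measured 5.97, 7.39 and 7.67 per 1000 macrophage CPM in SCI and 6.99, 5.49 and 5.36 in SCI + SCS, so that the groups overlapped, and 6.62, 10.3 and 12.5 in Sham. *Ctsk* measured 49.0, 67.5 and 78.7 in SCI, 54.1, 39.9 and 31.5 in SCI + SCS, and 46.6, 78.4 and 95.4 in Sham, also with overlap. *Lgals3* and *Gpnmb* made up most of the macrophage sum in the injured cords, 75.3% on average in SCI and 76.2% in SCI + SCS, against 31.1% in Sham. Without these 2 genes, the injured groups still did not overlap for *Atp6v0d2* (10.9 to 13.2 per 1000 CPM in SCI, 1.38 to 7.58 in SCI + SCS) and still overlapped for *Acp5* (23.5 to 32.8 and 22.7 to 26.2) and *Ctsk* (193 to 301 and 134 to 203). The position of Sham depended on them, since *Acp5* then measured 8.03 to 20.4 in Sham, below SCI.

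Against fibroblast markers, *Ctsk* varied little within the Sham group, at 12.4, 12 and 11.3 per 1000 CPM, and measured 34.1, 39.6 and 35.1 in SCI and 24.3, 32.5 and 23.1 in SCI + SCS. The Sham spread of *Ctsk* (from 6.08 to 24.5 CPM) thus followed the fibroblast markers closely. *Acp5* measured 1.76, 1.57 and 1.47 per 1000 fibroblast CPM in Sham, 4.15, 4.34 and 3.42 in SCI and 3.13, 4.48 and 3.93 in SCI + SCS. *Atp6v0d2* measured 2.33, 1.54 and 1.27 in SCI and 0.906, 0.778 and 0.239 in SCI + SCS, again without overlap.

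**Figure D3:**
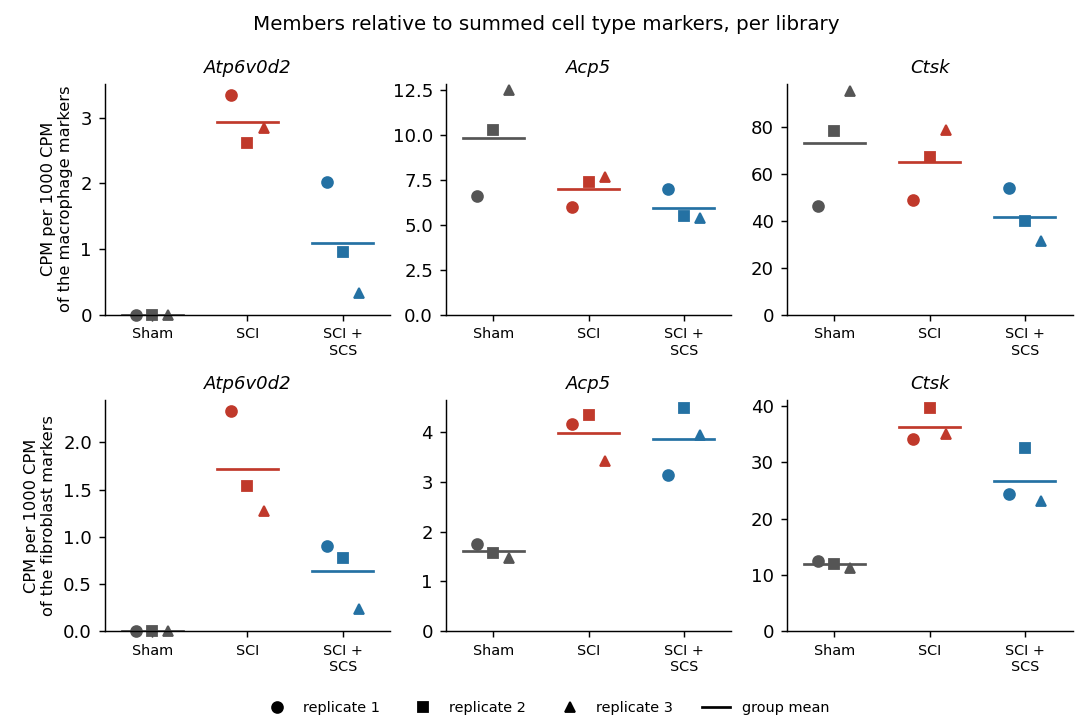
CPM of Atp6v0d2, Acp5 and Ctsk per 1000 summed CPM of macrophage markers (upper row) and of fibroblast markers (lower row), linear axes from 0, for each library with a line at the group mean (n = 3). Atp6v0d2 stays lower in SCI + SCS than in SCI on both scales, the injured groups overlap for Acp5 on both, and Ctsk relative to fibroblast markers lies between 11.3 and 12.4 in Sham.

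Ratios of 2 members within a library do not depend on normalization. *Atp6v0d2* over *Acp5* in CPM was 0.562, 0.355 and 0.372 in SCI and 0.290, 0.174 and 0.0608 in SCI + SCS, without overlap (exact two-sided permutation test, p = 0.1, the smallest that 3 against 3 allows, and 0.15 after adjustment over 3 ratios). *Ctsk* over *Acp5* was 8.21, 9.13 and 10.3 in SCI and 7.75, 7.27 and 5.88 in SCI + SCS, also without overlap (exact permutation p = 0.1, adjusted 0.15). *Atp6v0d2* over *Ctsk* overlapped between the groups (0.0363 to 0.0684 in SCI, 0.0103 to 0.0374 in SCI + SCS, exact permutation p = 0.2, adjusted 0.2). With this number of rats, such a test cannot pass the threshold.

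The genes whose log2 CPM most resembled that of *Atp6v0d2* over the 9 libraries, among 16279 genes, were *Rpl35-ps8*, *Ptcd3*, *Gtf2h2*, *Bbc3* and *Adig*, with Pearson's r from 0.98 to 0.99. *Ptcd3*, which encodes a mitochondrial ribosome protein, measured 35.7 to 43.7 CPM in Sham, 206 to 228 CPM in SCI and 68.7 to 117 CPM in SCI + SCS. *Adig*, an adipocyte gene, measured 0.0795 to 0.229 CPM, 3.17 to 4.91 CPM and 0.893 to 2.10 CPM in the same order. Neither is an osteoclast gene, and correlations over 9 libraries in 3 groups mostly restate the group order. Within the 6 injured libraries, the genes most like the mean standardized level of the 5 members were *Cxcr1*, *Meis3*, *Stxbp2*, *Ppil6* and *Il1b* (r from 0.995 to 0.999). *Cxcr1*, a receptor of neutrophil chemokines, had 0 CPM in Sham, 4.89, 8.51 and 4.91 CPM in SCI and 1.82, 1.05 and 1.0 CPM in SCI + SCS. *Il1b*, which encodes interleukin-1β, measured 1.10 to 1.43 CPM in SCI and 0.439 to 0.758 CPM in SCI + SCS.

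The wider osteoclast program was described with 51 other genes grouped by role, of which 49 had a row and 48 were tested against Sham. In SCI against Sham, 16 were called higher and 4 lower, where 13.4% and 13.6% of all 17822 rows were called. The median log2FC of the list was 0.70, against 0.02 over all rows tested. The called genes were unevenly spread over the roles.

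Among the ligands and receptors, *Csf1r* rose (log2FC 1.54 ± 0.22, adjusted p = 0.00291), from 94.5 to 157 CPM in Sham to 291 to 421 CPM in SCI. *Tnfrsf11a*, the RANK receptor, fell in SCI (log2FC -1.11 ± 0.22, adjusted p = 0.00703), from 27.7 to 34.8 CPM in Sham to 10.2 to 17.9 CPM. *Tnfrsf11b*, the soluble decoy of RANKL, also fell (log2FC -1.46 ± 0.22, adjusted p = 0.00322), from 19.0 to 31.3 CPM to 7.50 to 10.1 CPM. *Tnfsf11*, the ligand itself, was at 0 in Sham and at 0.0381, 0.355 and 1.46 CPM in SCI, and was not tested against Sham by edgeR because of its low counts. The receptor of the main differentiation signal and its decoy were thus lower in the cords where *Atp6v0d2*, *Acp5* and *Ctsk* were highest. The ligand was detected in SCI and not in Sham, and varied widely between SCI rats. Whether signaling by RANKL differed was not tested, nor was the part of cell loss in these falls.

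Of the 8 genes of ITAM co-stimulation, 7 were called higher in SCI. *Trem2*, a lipid-sensing receptor of macrophages and microglia, had the largest difference (log2FC 4.10 ± 0.22, adjusted p = 0.000783), from 9.2 to 14.8 CPM in Sham to 179 to 230 CPM in SCI. Its adaptor *Tyrobp* rose by 3.71 ± 0.30 (adjusted p = 0.00106), and the kinase *Syk* by 2.26 ± 0.30 (adjusted p = 0.00227). *Siglec15*, a sialic acid receptor that pairs with TYROBP in osteoclasts, rose by 1.35 ± 0.21 (adjusted p = 0.00323). These genes belong to macrophages and microglia at large and not to osteoclasts alone.

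Among 10 transcription factor genes, 4 were called higher, led by *Spi1*, which encodes PU.1 (log2FC 2.96 ± 0.26, adjusted p = 0.00120). *Nfatc1*, the master regulator of osteoclast differentiation, had a log2FC of 0.76 ± 0.30 with adjusted p = 0.0722, from 5.72 to 11.9 CPM in Sham to 12.2 to 19.0 CPM in SCI. *Mitf* had a log2FC of -0.02 ± 0.20 (adjusted p = 0.945), with overlapping libraries. Of the 3 repressors of the osteoclast program that were tested, 2 were called higher in the same comparison.

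Of the 10 genes of acid secretion and matrix digestion, 1 was called higher and 2 lower in SCI. *Tcirg1*, the a3 subunit of the V-ATPase of osteoclasts, rose by 2.06 ± 0.14 (adjusted p = 0.000976), from 20.9 to 29.5 CPM to 103 to 110 CPM. *Car2*, the carbonic anhydrase that supplies protons and is also abundant in oligodendrocytes, fell by 1.72 on the log2 scale (adjusted p = 0.00508). *Snx10*, a sorting nexin of osteoclast acid secretion, fell by 1.25 (adjusted p = 0.00294). *Mmp9* had a log2FC of 2.85 ± 0.99 with adjusted p = 0.0511, and did not exceed 1.98 CPM in any library. None of the 6 adhesion genes was called, and of the 5 fusion genes 1 was called higher, *Adam12*, named here after its value was seen.

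In SCI + SCS against SCI, edgeR called 0 of the 49 genes in either direction, as did DESeq2. At an unadjusted p under 0.05 there were 12 in edgeR, where 24.2% of all rows passed, and 16 in DESeq2, where 22% passed. The median log2FC was -0.19. *Trem2* differed by -0.58 ± 0.12 (adjusted p = 0.0826), *Tyrobp* by -0.52 ± 0.09 (adjusted p = 0.0719) and *Tcirg1* by -0.52 ± 0.08 (adjusted p = 0.0719), each without overlap of the libraries. *Csf1r* differed by -0.06 ± 0.18 (adjusted p = 0.863) and *Siglec15* by -0.08 ± 0.22 (adjusted p = 0.849), both with overlap. The log2FC of *Tnfsf11* was -2.17 ± 1.21 (adjusted p = 0.317), that of *Tnfrsf11b* 0.62 ± 0.16 (adjusted p = 0.0958) and that of *Tnfrsf11a* 0.36 ± 0.21 (adjusted p = 0.335).

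In SCI + SCS against Sham, 16 of the 48 genes tested were called higher and 2 lower, against 6.28% and 5.44% of all rows. *Trem2* rose by 3.53 ± 0.19 (adjusted p = 0.00278), *Tyrobp* by 3.2 ± 0.29 (adjusted p = 0.00315), *Spi1* by 2.53 ± 0.25 (adjusted p = 0.00336) and *Syk* by 1.85 ± 0.28 (adjusted p = 0.00702). *Calcr*, the calcitonin receptor of osteoclasts and of some neurons, fell by 1.77 on the log2 scale (adjusted p = 0.0333) at no more than 0.738 CPM in any library, and *Car2* fell by 1.09 (adjusted p = 0.0338). The number called lower moved from 2 to 0 without Sham replicate 1, SCI + SCS replicate 1 or SCI + SCS replicate 2, and to 1 without Sham replicate 2 or SCI + SCS replicate 3.

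**Figure D4:**
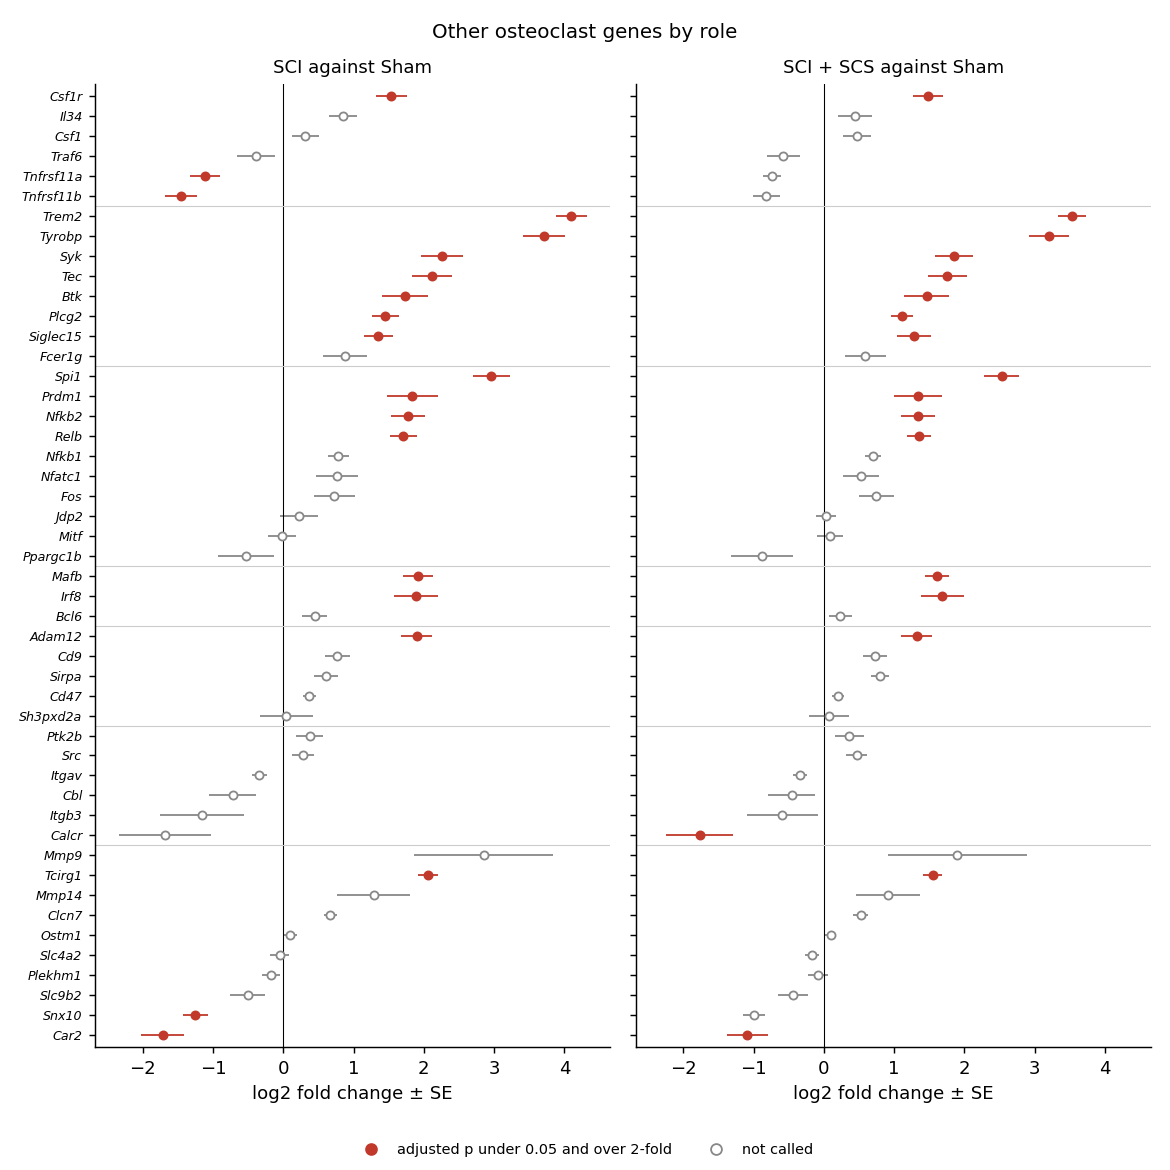
Log2 fold change with its standard error (horizontal axes) of the 48 other osteoclast genes tested against Sham, for SCI (left) and SCI + SCS (right), which share the Sham libraries. Horizontal lines separate ligands and receptors, ITAM signaling, transcription factors, repressors, fusion, adhesion and resorption from top to bottom, filled points are called genes, and the ITAM group holds 7 called genes in each panel.

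The other V-ATPase subunits did not follow *Atp6v0d2* as a group. Of the 23 with a row among 24, 21 were tested, with a median log2FC of -0.33 in SCI against Sham. Of these, 2 were called higher and 5 lower, where 13.4% and 13.6% of all 17822 rows were called. *Atp6v0e1*, a small membrane subunit, rose by 1.16 ± 0.14 (adjusted p = 0.00202), the other being *Tcirg1*. The lower ones included *Atp6v1g2*, a form of the G subunit enriched in neurons (log2FC -1.98 ± 0.40, adjusted p = 0.00786), the catalytic subunit *Atp6v1a* (-1.46 ± 0.17, adjusted p = 0.00172), *Atp6v0e2* (-1.17 ± 0.12, adjusted p = 0.00143) and *Atp6v0a1* (-1.12 ± 0.15, adjusted p = 0.00236). The sums of neuron markers were 2790 to 5590 CPM in Sham, 520 to 1710 CPM in SCI and 1510 to 2340 CPM in SCI + SCS. Their part in the fall of these subunits was not tested.

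In SCI + SCS against SCI, 0 of the 21 subunits were called in either direction by edgeR and 0 of 22 by DESeq2. At an unadjusted p under 0.05 there were 6 in edgeR and 7 in DESeq2, against the same 24.2% and 22% of all rows. The median log2FC was 0.19, while that of *Atp6v0d2* was -2.03. In SCI + SCS against Sham, *Tcirg1* was called higher (log2FC 1.55 ± 0.14, adjusted p = 0.00315), and *Atp6v1a* (log2FC -1.17 ± 0.16, adjusted p = 0.00617) and *Atp6v1g2* (log2FC -1.17 ± 0.24, adjusted p = 0.0159) were called lower. These were 1 higher and 2 lower of 21 tested, against 6.28% and 5.44% of all rows. The number called lower was 1 without Sham replicate 1 or 2 or SCI + SCS replicate 1 or 2.

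**Figure D5:**
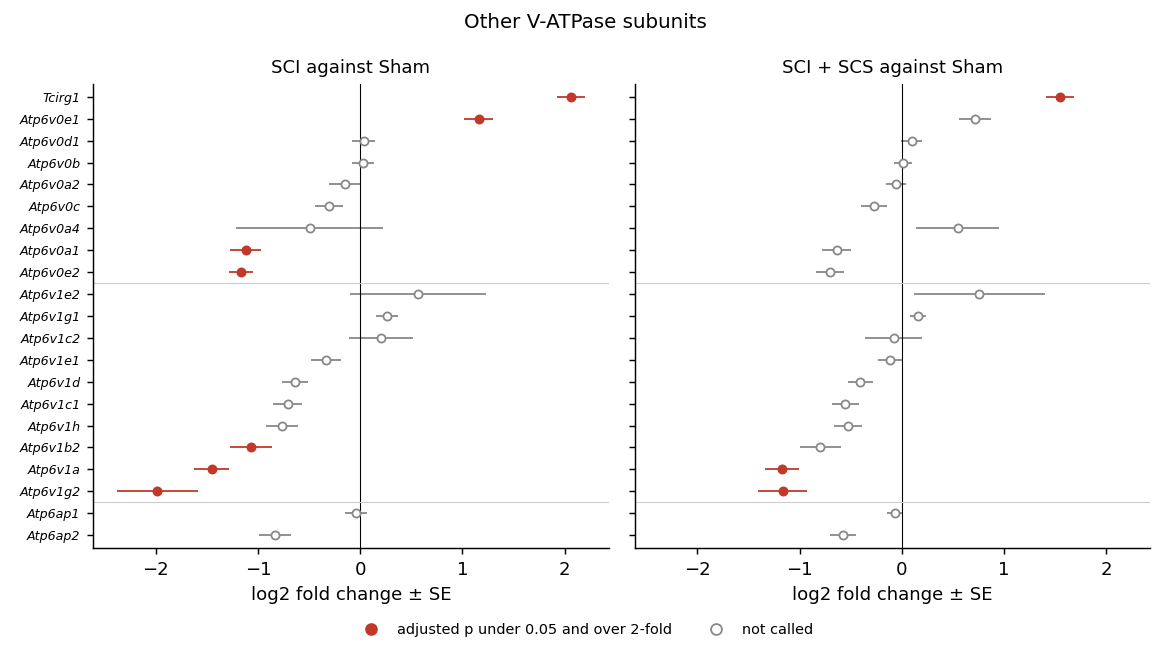
Log2 fold change with its standard error (horizontal axes) of the 21 other V-ATPase subunits tested against Sham, for SCI (left) and SCI + SCS (right), which share the Sham libraries. Lines separate the membrane sector V0, the catalytic sector V1 and accessory proteins from top to bottom, and Tcirg1 is the highest point in both panels.

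Genes of bone-forming cells were examined as the partner lineage of osteoclasts. The sum of 10 osteoblast and osteocyte markers, led by *Alpl*, was 26.0 to 51.0 CPM in Sham, 71.9 to 150 CPM in SCI and 51.2 to 87.3 CPM in SCI + SCS, and none was at 0 in all libraries. *Alpl* made up most of that sum (83.0 of 120 CPM on average in SCI). Of the 9 tested in SCI against Sham, 6 were called higher and 1 lower by edgeR, where 13.4% and 13.6% of all 17822 rows were called. In that comparison 8 of the 9 had a positive log2FC, with a median of 1.94 and a range from -1.64 to 8.45. The only one with a negative value was *Sp7*, a transcription factor gene, with means of 12.1 CPM in Sham, 3.92 CPM in SCI and 5.77 CPM in SCI + SCS. In SCI + SCS against SCI, 8 of 9 tested had a negative log2FC and 1 a positive one, and 0 were called by edgeR. The part of bone-forming cells in the levels of *Atp6v0d2*, *Acp5* and *Ctsk* was not tested.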

How the data were processed

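Total RNA of T9-T11 spinal cord was enriched for mRNA with oligo(dT) beads. According to the submitters' processing notes, the tools included fastp 0.23.2 and HISAT2 2.2.1 and the build was mRatBN7.2, while the counting program and annotation are not given in the sources used here. The authors deposited raw counts per gene for each of the 9 libraries, and a table of FPKM, which the authors scaled by gene length and sequencing depth. The paper's methods name DESeq2 for its own comparisons.

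Libraries were grouped by their titles, which give the group and replicate number and no batch. The counts of the 6 libraries of each comparison entered edgeR 4.0.16 under R 4.3.3, with its default filter, TMM factors, no covariates and the quasi-likelihood test. P-values were adjusted by Benjamini-Hochberg over all rows tested. SE was |log2FC| divided by the square root of F. Intervals are 95% and per gene. CPM used TMM factors over the 9 libraries, and log2 CPM used an offset of 0.5. DESeq2 1.42.0, limma 3.58.1 on log2(FPKM + 0.1) or log2(FPKM + 1), the replicate block, other filters and scalings, and leaving out each library were alternatives. The fits were tested on simulated data. The promoters were searched in Python.

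The members and gene lists were chosen with earlier results of these data known. All members were named. From the osteoclast and V-ATPase lists, up to 4 higher and 4 lower called genes per comparison without overlapping libraries were named, with fixed regulators, the 5 genes most like each pattern, and the leading gene of marker lists, apart from 1 gene not reported here. The fibroblast scale, the macrophage scale without 2 genes and the ratios of members were added after values were seen. So were single marker genes other than the leading ones and *Lep*. The comparisons share libraries. Replicates are separate rats, and 3 against 3 cannot give an exact permutation p under 0.1.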

Additional observations from a re-analysis of the deposited data

How the results depend on the processing

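Against Sham, the number of members called higher in SCI + SCS was 3 and became 1 with the replicate block, and it ranged from 1 to 3 when each library was left out. Same-numbered libraries had mean correlations of deviations of 0.13 in SCI against Sham, -0.12 in SCI + SCS against SCI and -0.21 in SCI + SCS against Sham. With 3 libraries per group, these values cannot decide whether the numbers pair the rats. In SCI + SCS against SCI, DESeq2 called 2 members lower where edgeR called 0, and gave *Atp6v0d2* -2.04, past the threshold. Of the other osteoclast genes, the number called lower in SCI + SCS against Sham (2) became 1 with all 9 libraries in one fit and with limma at an offset of 0.1, 0 with the replicate block, with limma at an offset of 1 and with limma without a filter, and 6 without the fold threshold, and it ranged from 0 to 2 when each library was left out. Of the other V-ATPase subunits, the number called lower in that comparison (2) became 1 with the replicate block and 9 without the fold threshold, and ranged from 1 to 2 when each library was left out. Without the fold threshold, 2 were called higher there and 9 were called lower in SCI against Sham. The near-zero log2FC of *Ocstamp* in SCI + SCS against Sham changed sign with DESeq2 (-0.0144), DESeq2 size factors (-0.00313), no filter (-0.0118), the replicate block (-0.11) and limma without a filter (-0.000297), and ranged from -0.46 to 0.53 when each library was left out. The causes were not tested. Per microglia marker CPM, the log2 ratio of SCI + SCS over SCI was -2.08 for *Atp6v0d2*, -0.95 for *Acp5* and -1.37 for *Ctsk*. The replicate block changed no other call of a member. Depth limits *Dcstamp* and *Ocstamp*, which did not exceed 57 counts in any library.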
